A study of Mus musculus with 8 samples.

Results

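The transferrin receptor gene Tfrc and 9 further genes of cellular iron handling (Fth1, Ftl1, Slc40a1, Slc11a2, Aco1, Ireb2, Fbxl5, Ncoa4 and Steap3) were examined in mouse mesenchymal stem cells (MSCs, stromal cells of bone with the capacity to become osteoblasts, adipocytes or chondrocytes) cultured at 2 oxygen levels. The 10 genes were taken by symbol, pseudogenes excluded, from a table of RNA-seq counts for 53465 gene identifiers. Tfrc was chosen by its difference between these oxygen levels, and the other genes were chosen around it with earlier results of the same samples known, so their differences are described here without p-values. All 10 passed the filter on low counts, which left 14369 genes.

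The cells were wild-type, came from the bones of male C57BL/6N mice of 3-5 months, and were sorted as CD45-/Ter-119-/Sca-1+/CD140a+ cells. In the hypoxia group they stayed at 2% O2. In the normoxia group they were moved to 21% O2. Each group had 4 libraries of total RNA, numbered 1 to 4, which the study describes as biologically independent replicates. Per the study, sorted cells were divided between the conditions. The cells had been expanded in culture, at 2% O2 before the shift, so the hypoxia samples are cultured cells and not cells taken fresh from bone. Libraries that share a number were alike in how they departed from their group's mean (correlations across genes of 0.474, 0.275, 0.249 and 0.172 for numbers 1 to 4). Values with the replicate number as a block are therefore given where they change a result.

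Total counts were 25132141 in hypoxia replicate 1 and between 12898291 and 13433824 in the other 7 libraries. At this depth 3 counts correspond to 0.119 to 0.233 CPM (counts scaled to the size of the library), whereas each of the 10 genes had at least 104 counts in every library. Of 6 genes known to rise in low oxygen, 5 were lower in normoxia (adjusted p below 0.05, limma-trend). The clearest was Car9, a carbonic anhydrase, which fell by 2.34 on the log2 scale (SE 0.16 and adjusted p = 9.81e-06). The gene of the angiogenic factor VEGF, Vegfa, did not pass (log2 change -0.064, SE 0.068). The defining genes of the sort, Ly6a (Sca-1) and Pdgfra (CD140a), were present in both groups, at means of 434 and 175 CPM in hypoxia and 393 and 206 CPM in normoxia.

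Cells take up iron mainly as transferrin, which binds the transferrin receptor at the surface and is carried into endosomes. There the iron is reduced by ferrireductases of the STEAP family and leaves through the transporter DMT1. Iron that is not used is stored in ferritin, a shell of heavy and light chains, or is exported through ferroportin. The balance is set largely after transcription. When iron is scarce, the iron regulatory proteins IRP1 and IRP2 bind a short hairpin, the iron-responsive element. A hairpin in the 5′ untranslated region (UTR) then blocks translation, as in the ferritin mRNAs, and hairpins in the 3′ UTR protect the mRNA from decay, as in Tfrc. Low oxygen is known to raise Tfrc through hypoxia-inducible factors in several cell types, and IRP2 is degraded by a ligase whose subunit FBXL5 senses both iron and oxygen.

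The iron-responsive elements themselves are shown first, for those members in which a match was found. Annotated mouse transcripts (GENCODE M21, GRCm38) were searched on the transcript strand for a C, 5 bases, the loop CAGTGN, and 5 bases that pair with the first 5, with G-U pairs allowed. In the sequences below, written 5′ to 3′ as DNA, the capitals mark the bulged C and the 6-base loop. The 3′ UTR of Tfrc held 4 such sites, at chr16:32631219-32631247, chr16:32631598-32631626, chr16:32631663-32631691 and chr16:32631710-32631738 on the + strand, in that order.
Tfrc site 1: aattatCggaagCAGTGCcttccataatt
Tfrc site 2: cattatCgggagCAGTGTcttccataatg
Tfrc site 3: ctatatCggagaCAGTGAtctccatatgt
Tfrc site 4: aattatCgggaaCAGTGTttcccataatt
The remaining matches among the 10 genes lay in 5′ UTRs. They were at chr19:9982732-9982760 (+ strand) in Fth1, chr7:45459779-45459807 (- strand) in Ftl1 and chr1:45925465-45925493 (- strand) in Slc40a1.
Fth1: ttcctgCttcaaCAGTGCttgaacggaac
Ftl1: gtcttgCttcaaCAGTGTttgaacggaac
Slc40a1: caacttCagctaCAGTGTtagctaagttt

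The pattern was rare outside these genes. It occurred in the 3′ UTR of 129 of 21707 coding genes (0.594%), and Tfrc was the only gene with more than 1 match there. In 5′ UTRs it occurred in 31 of 20916 genes (0.148%), among them Fth1, Ftl1 and Slc40a1. No match was found in the annotated UTRs of Slc11a2, Aco1, Ireb2, Fbxl5, Ncoa4 or Steap3, which says only that these letters, with this loop and pairing, are not there. A match is a description of sequence and was not linked to binding in these cells.

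Tfrc, the receptor that carries transferrin-bound iron into the cell (ENSMUSG00000022797, chr16:32608920-32632794, + strand), was at 25.2, 14.8, 14.0 and 8.94 CPM in hypoxia replicates 1 to 4. In normoxia it was at 55.8, 46.3, 55.3 and 51.3 CPM. The groups did not overlap, and the lowest normoxia value lay well above the highest hypoxia value, that of replicate 1. The means were 15.7 ± 6.83 and 52.2 ± 4.38 CPM (SD, n = 4 each), a ratio of 3.32, and the log2 change (normoxia minus hypoxia) was 1.81 ± 0.23 (here and below ± SE for a log2 change). Within the 4 numbered pairs the log2 difference was 1.14, 1.64, 1.97 and 2.49, so the size varied between pairs while the direction did not. Without hypoxia replicate 1, the deepest library, the log2 change was 2.06.

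Since Tfrc is abundant in dividing cells and in red cell precursors, markers of both were summed in each library. The 12 proliferation genes together were at 352 to 619 CPM in hypoxia and 388 to 591 CPM in normoxia. None of them passed the adjusted threshold by limma-trend, edgeR, DESeq2 or limma-voom, and 1 had an unadjusted p below 0.05. With the replicate block 2 passed, Top2a and Bub1, both higher in normoxia. Over all tested genes 23.3% were then higher and 22.7% lower. With the block and a correction for GC content and transcript length, Top2a was higher, Ccna2 and Mcm6 were lower, and Bub1 was not called. In that fit 3129 of all tested genes were higher and 3081 lower. Of 10 erythroid genes, 7 had no count in any library, among them the adult globins, and the list summed to at most 0.963 CPM in hypoxia and 0.577 CPM in normoxia. The part of cell division in the Tfrc difference was not tested.

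**Figure D1:**
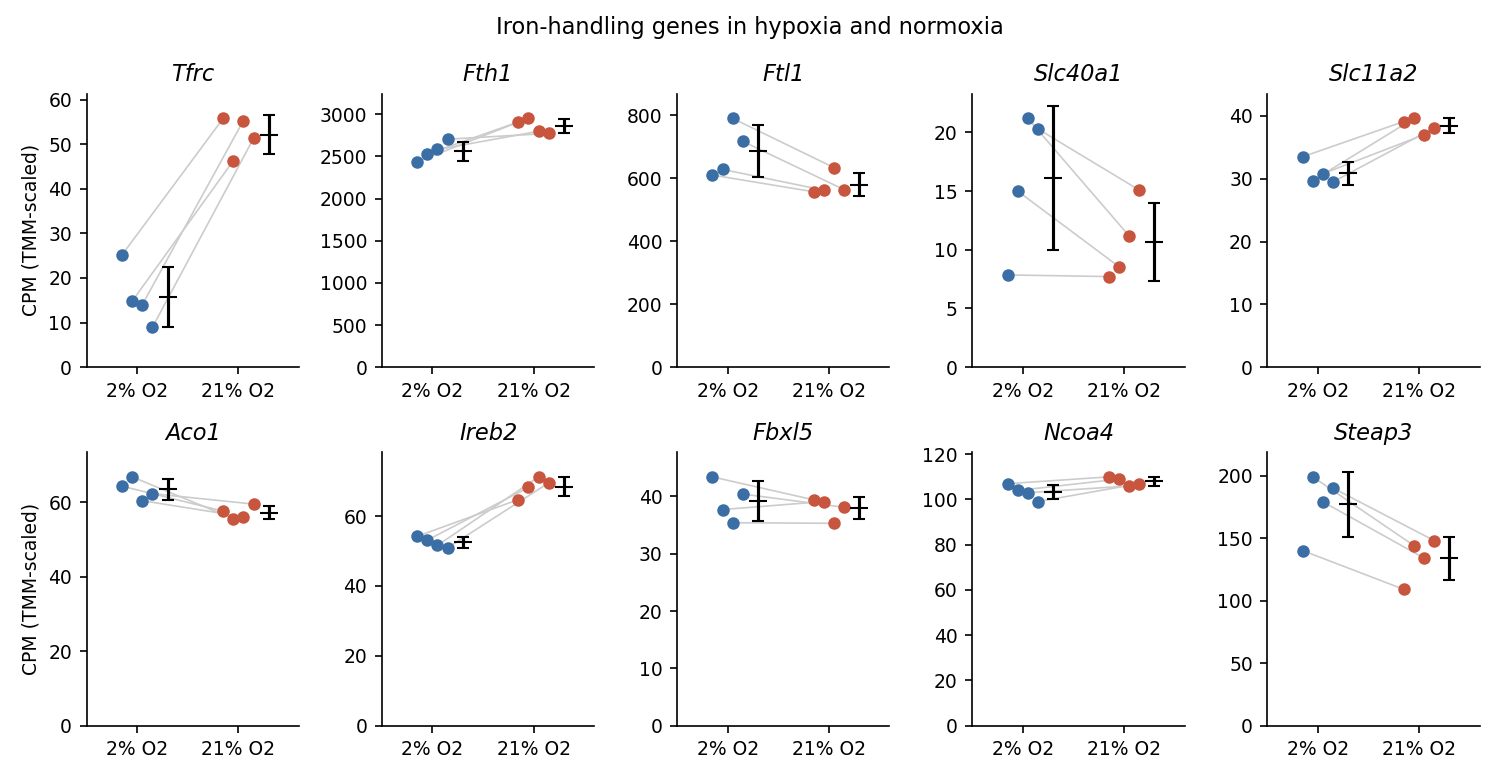
Abundance of the 10 iron-handling genes in each library, in CPM scaled by TMM factors, for 2% O2 (blue) and 21% O2 (red). Grey lines join libraries with the same number, and black bars give the mean ± SD of 4 libraries. Tfrc, Fth1, Slc11a2 and Ireb2 are higher in all normoxia libraries than in any hypoxia library, and Aco1 is lower in all of them.

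Further along the same uptake route, Steap3, an endosomal ferrireductase (ENSMUSG00000026389, chr1:120190757-120272705, - strand), was at 140, 199, 179 and 190 CPM in hypoxia. In normoxia it was at 109, 144, 134 and 148 CPM. Replicate 1 was the lowest library of each group, and the groups overlapped because hypoxia replicate 1 lay below normoxia replicates 2 and 4. All 4 pairs were lower in normoxia, by similar amounts (log2 differences of -0.36, -0.46, -0.41 and -0.36). The log2 change was -0.40 ± 0.11, and its SE was 0.05 with the replicate block.

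Slc11a2 encodes DMT1, the transporter that moves ferrous iron out of the endosome (ENSMUSG00000023030, chr15:100387898-100425072, - strand). It was at 33.5, 29.7, 30.8 and 29.5 CPM in hypoxia and at 39.1, 39.6, 37.0 and 38.1 CPM in normoxia. The groups did not overlap, and the spread within each was small. The log2 change was 0.32 ± 0.068, which corresponds to 24.6% more in normoxia. Receptor and transporter were thus higher in normoxia while the reductase was lower. The transcripts of Slc11a2 that do and do not carry an iron-responsive element cannot be told apart in counts per gene.

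For storage, Fth1, the ferritin heavy chain with ferroxidase activity (ENSMUSG00000024661, chr19:9980598-9985098, + strand), was at 2436, 2527, 2582 and 2704 CPM in hypoxia. In normoxia it was at 2907, 2951, 2798 and 2773 CPM. The groups did not overlap, although the closest libraries, both numbered 4, differed little (log2 difference 0.037). The log2 change was 0.16 ± 0.071, or 11.5% more in normoxia.

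Ftl1, the ferritin light chain, which favours mineral formation inside the shell (ENSMUSG00000050708, chr7:45457944-45459884, - strand), moved the other way. It was at 610, 628, 790 and 717 CPM in hypoxia and at 557, 562, 634 and 564 CPM in normoxia. The groups overlapped through normoxia replicate 3, yet each pair was lower in normoxia (log2 differences of -0.13, -0.16, -0.32 and -0.35). The log2 change was -0.24 ± 0.084. With GC content and transcript length corrected for, it was 0.022 ± 0.066, so the decrease of Ftl1 did not hold.

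Ferritin genes have near-identical copies. Of the annotated copies of Ftl1, Gm15590 (99.1% identical) had 175 to 351 counts per library, Ftl1-ps1 14 to 42, Ftl2-ps at most 11 and Gm12164 at most 4. All 9 copies of Ftl1 together held 3.11% as many counts as Ftl1, and the 1 copy of Fth1, Gm6977, held 0.0408% as many as Fth1. Adding the pseudogenes left the log2 changes at 0.16 for Fth1 and -0.24 for Ftl1. How reads that map to several copies were counted is not stated.

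Ncoa4, the receptor that brings ferritin to lysosomes for iron release (ENSMUSG00000056234, chr14:32159865-32179855, + strand), was at 107, 104, 103 and 99.1 CPM in hypoxia. In normoxia it was at 110, 109, 106 and 107 CPM. The ranges overlapped and the log2 change was 0.06 ± 0.051. It was -0.086 after the GC and length correction, so Ncoa4 had no direction that held in both.

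Slc40a1 encodes ferroportin, the iron exporter (ENSMUSG00000025993, chr1:45908068-45926523, - strand). By the SD of log2 CPM it was the most variable of the 10 genes in both groups, at 7.86, 15.0, 21.2 and 20.3 CPM in hypoxia and at 7.72, 8.57, 11.2 and 15.1 CPM in normoxia. The groups overlapped widely and the log2 change was -0.54 ± 0.28. By pair, the log2 difference was -0.024, -0.79, -0.91 and -0.43, and the standard error fell to 0.12 with the replicate block. Hypoxia replicate 1 set much of the spread, as the log2 change was -0.84 without it and -0.72 without both samples numbered 1.

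Macrophages recycle iron and are known for high ferroportin, so 10 macrophage genes were summed beside Slc40a1. The sort removed CD45+ cells, but all 10 genes passed the filter, at a sum of 586 to 1233 CPM in hypoxia and 663 to 1271 CPM in normoxia. The CD45 gene Ptprc itself was at a mean of 13.0 CPM in hypoxia and 13.8 CPM in normoxia. Within the list Lyz2 was higher in normoxia, and Mrc1 and C1qa were lower (adjusted p = 0.022, 0.0422 and 0.0464 by limma-trend). Blocking on the replicate number, 1 of the 10 was higher and 5 were lower, against 23.3% and 22.7% of all tested genes. With the GC and length correction as well, 1 was higher and 4 were lower, against 3129 and 3081 of all tested genes. Lyz2 alone held a mean of 354 CPM of the sum in hypoxia and 523 CPM in normoxia. The other 9 genes summed to 325, 491, 797 and 600 CPM in hypoxia and to 264, 330, 579 and 404 CPM in normoxia, with means of 553 ± 198 and 394 ± 136 CPM (SD, n = 4 each), lower in normoxia in every pair. In bulk samples, fewer cells of a type and less RNA per cell cannot be told apart.

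Across the 8 libraries, taken as deviations from their group means, the macrophage sum correlated with Slc40a1 (r = 0.83) and Ftl1 (r = 0.89), and inversely with Fbxl5 (r = -0.87). For the other members r was -0.74 (Ncoa4), -0.72 (Slc11a2), 0.61 (Steap3), -0.51 (Tfrc), -0.46 (Aco1), 0.18 (Fth1) and 0.15 (Ireb2). These are descriptions over libraries that share pairs and depth. Per 1000 CPM of macrophage genes, Slc40a1 was at 13.4, 18.0, 17.2 and 20.8 CPM in hypoxia and at 11.6, 10.8, 8.80 and 16.0 CPM in normoxia. On this scale normoxia replicate 4 alone reached the hypoxia range, but the separation rested on Lyz2. Without Lyz2, a choice made after seeing the data, Slc40a1 per 1000 CPM was at 24.1, 30.6, 26.6 and 33.9 CPM in hypoxia and at 29.3, 26.0, 19.3 and 37.3 CPM in normoxia, so that the groups overlapped, at means of 28.8 ± 4.30 and 28.0 ± 7.50 (SD, n = 4 each). The part of macrophage RNA in the differences of Slc40a1, Ftl1 and the other members was not tested.

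**Figure D2:**
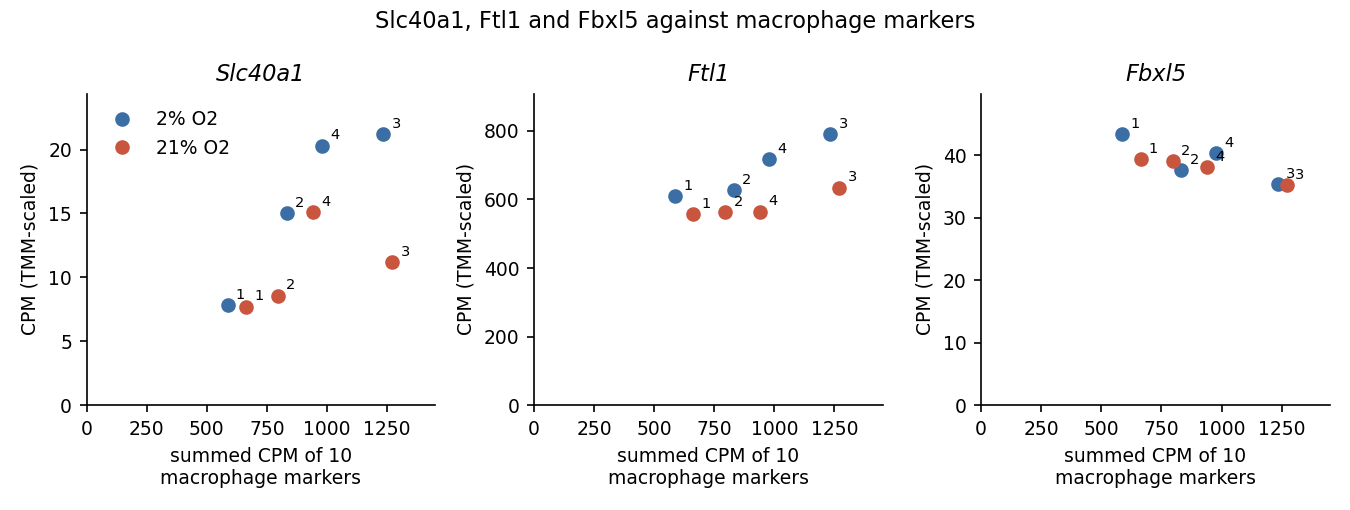
Slc40a1, Ftl1 and Fbxl5 (CPM, y axes) against the summed CPM of 10 macrophage genes (x axes) in the 4 hypoxia (blue) and 4 normoxia (red) libraries, numbered by replicate. Slc40a1 and Ftl1 are highest in hypoxia replicate 3, at 21.2 and 790 CPM, where the sum is 1233 CPM, and Fbxl5 is lowest in the 2 libraries numbered 3.

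Among the regulators, Aco1 encodes IRP1, which is a cytosolic aconitase when it holds an iron-sulphur cluster and binds RNA when it does not (ENSMUSG00000028405, chr4:40143081-40198338, + strand). It was at 64.3, 66.8, 60.4 and 62.3 CPM in hypoxia and at 57.6, 55.6, 56.1 and 59.5 CPM in normoxia. The groups did not overlap, but their nearest values were close. The log2 change was -0.15 ± 0.058, or 9.83% less in normoxia.

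Ireb2 encodes IRP2, the regulatory protein that is controlled by degradation (ENSMUSG00000032293, chr9:54863789-54912530, + strand). It was at 54.2, 53.1, 51.6 and 50.9 CPM in hypoxia and at 64.7, 68.2, 71.2 and 69.5 CPM in normoxia. The groups were clearly apart, at a log2 change of 0.38 ± 0.058. After the GC and length correction it was 0.14 ± 0.056.

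Fbxl5, the iron- and oxygen-sensing subunit of the ligase that marks IRP2 for degradation (ENSMUSG00000039753, chr5:43744615-43821638, - strand), was at 43.4, 37.7, 35.4 and 40.4 CPM in hypoxia. In normoxia it was at 39.4, 39.1, 35.3 and 38.1 CPM. The ranges overlapped almost fully and the log2 change was -0.044 ± 0.077. It was 0.044 when libraries were scaled by size alone, 0.0062 without hypoxia replicate 1, and -0.26 after the GC and length correction. Bst1, on the opposite strand, overlaps Fbxl5 and had 12 to 124 counts per library. Use of strand in the counting is not stated, so reads of the 2 genes may not have been told apart.

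Counted together, 3 of the 10 genes were called higher in normoxia at an adjusted p below 0.05 (Tfrc, Slc11a2 and Ireb2) and 2 lower (Ftl1 and Steap3). Over all tested genes 18.0% were called higher and 16.5% lower. With the replicate block, Fth1 joined the higher genes, and Aco1 and Slc40a1 the lower ones, which gave 4 higher and 4 lower against 23.3% and 22.7% of all genes. Groups without any overlap were found for 4 genes higher and 1 lower in normoxia, against 17.1% and 15.5% of all genes. Since the rule used this contrast, nothing is read from these counts. The median log2 change was 0.0079 over the 10 genes and 0.0049 over all genes.

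The scale on which libraries were compared mattered for the small changes. With TMM factors 52.2% of all called genes were higher in normoxia, and with library size alone 69.6%, a shift of 0.087 on the log2 scale for the median gene. With library size alone Tfrc, Fth1, Slc11a2, Ireb2 and Ncoa4 were called higher and none of the 10 lower. Of all 14369 tested genes, 3611 were then higher and 1575 lower. The GC content of the members ranged from 39% (Ireb2) to 58.1% (Ftl1), and a true change that depends on either property is taken out by the correction as well. After it, the sign remained for 8 genes and turned for Ftl1 and Ncoa4, neither of which was called. With it and without the block, Ireb2 lost its call, and Tfrc, Fth1 and Slc11a2 were called higher and Fbxl5 and Steap3 lower. With it and the replicate block together, Tfrc, Fth1, Slc11a2 and Ireb2 were called higher and Slc40a1, Fbxl5 and Steap3 lower. Over all tested genes 3129 were higher and 3081 lower in this last fit. The log2 change of Tfrc was 1.57 after this correction.

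**Figure D3:**
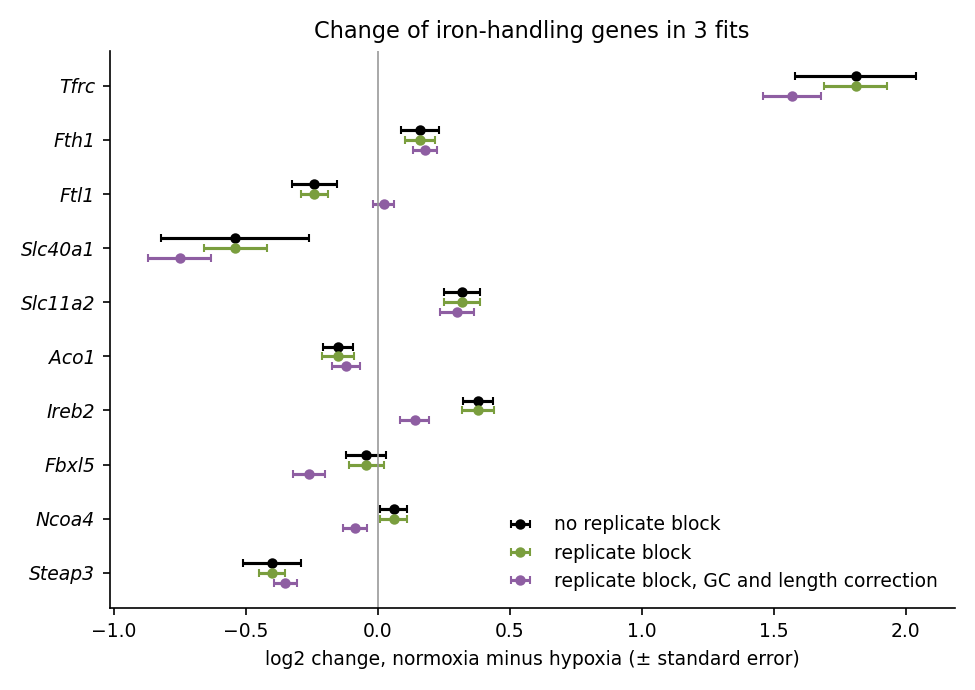
Log2 change (normoxia minus hypoxia, x axis) of the 10 genes with its standard error, without a replicate block (black), with it (green), and with it after correction for GC content and transcript length (purple). Tfrc stays above 1.5 in all 3 fits, whereas Ftl1 moves from -0.24 to 0.022 and Fbxl5 from -0.044 to -0.26.

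To compare the genes with each other, levels were expressed per kilobase of merged exons. In hypoxia the order was Fth1 (739 CPM per kilobase), Ftl1 (512), Steap3 (31.0), Aco1 (14.1), Ncoa4 (11.0), Ireb2 (5.53), Slc11a2 (4.86), Fbxl5 (4.03), Tfrc (2.54) and Slc40a1 (1.79). Neighbours did not overlap between libraries except Fbxl5 with Tfrc and Tfrc with Slc40a1. The 2 ferritin chains thus stood far above every other member, and the genes that carry iron across membranes were among the lowest.

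In normoxia the levels were 824 CPM per kilobase for Fth1, 432 for Ftl1, 23.4 for Steap3, 12.7 for Aco1, 11.5 for Ncoa4, 8.44 for Tfrc, 7.21 for Ireb2, 6.05 for Slc11a2, 3.90 for Fbxl5 and 1.18 for Slc40a1. Here Tfrc with Ireb2 was the only overlapping pair of neighbours. Tfrc thus moved from rank 9 to rank 6, while the first 5 genes kept their order. With the length of the longest transcript in place of merged exons, Tfrc moved from rank 10 to rank 7. On that length it stayed below Ireb2 in normoxia (means of 10.7 and 11.9 CPM per kilobase).

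Ratios within a library do not depend on how libraries are scaled. Fth1 over Tfrc per kilobase was 172, 305, 329 and 539 in hypoxia and 92.9, 114, 90.2 and 96.3 in normoxia, with means of 337 ± 152 and 98.3 ± 10.5 (SD, n = 4 each). Each hypoxia library thus held more ferritin heavy chain mRNA per receptor mRNA than any normoxia library. The heavy over light ferritin chain, Fth1 over Ftl1, was 1.45 ± 0.135 in hypoxia and 1.91 ± 0.15 in normoxia, without overlap. Ireb2 over Aco1, the mRNAs of IRP2 and IRP1, was 0.393 ± 0.0124 in hypoxia and 0.568 ± 0.0304 in normoxia, also without overlap. These ratios use the same contrast as the rule and are given without a test. The GC and length correction, which can change such ratios, was not applied to them. Under it, log2 changes were 0.18 for Fth1 and 0.022 for Ftl1, against 0.16 and -0.24 without it. For Ireb2 and Aco1 they were 0.14 and -0.12, against 0.38 and -0.15.

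**Figure D4:**
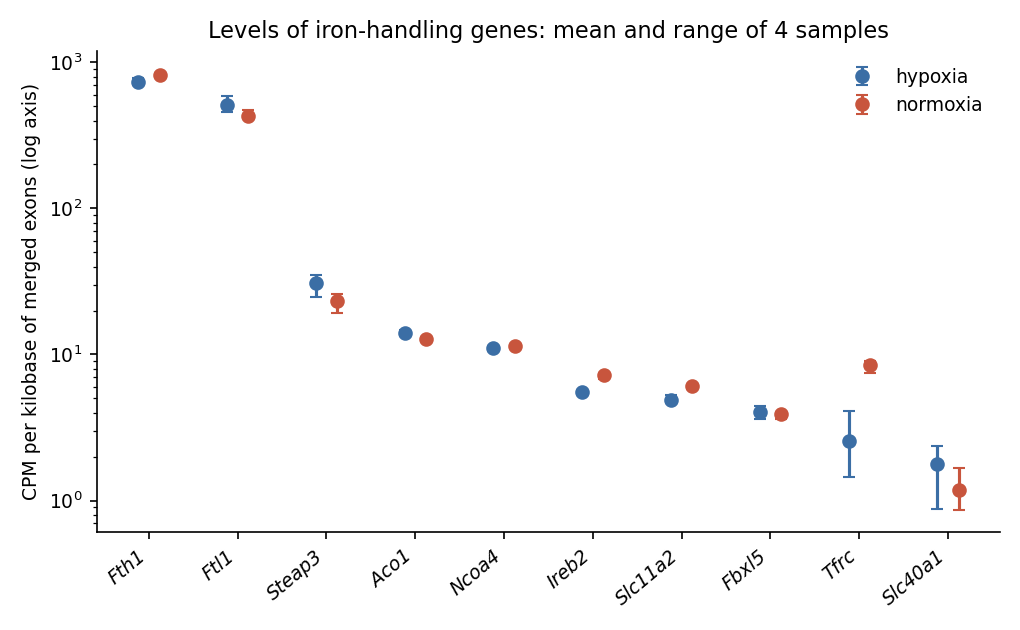
Levels of the 10 genes in CPM per kilobase of merged exons (log axis), as mean and range of 4 libraries, in hypoxia (blue) and normoxia (red), ordered by the hypoxia mean. Tfrc moves from 2.54 to 8.44 CPM per kilobase, past the means of Fbxl5, Slc11a2 and Ireb2, and overlaps Ireb2 in normoxia.

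Which genes varied most like Tfrc over the 8 libraries was asked among 9394 genes with a mean log2 CPM of at least 3. The closest were Zbtb38 (r = 0.996), Adam9 (0.995), Tln2 (0.993), Naa15 (0.993) and Ccdc9b (0.992). The most opposite were Isoc1 (r = -0.995), Decr2 (-0.989), Ifi27 (-0.988), Hikeshi (-0.985) and Apoe (-0.984). These values hold both the difference between the groups and the spread within them, and the genes were picked as the extremes of this measure. Among the members, deviations within groups ran with Tfrc for Ncoa4 (r = 0.85), Slc11a2 (0.73), Ireb2 (0.50), Aco1 (0.31) and Fbxl5 (0.31). They ran against it for Fth1 (-0.84), Slc40a1 (-0.73), Steap3 (-0.68) and Ftl1 (-0.49). The SD of Tfrc in log2 CPM was 0.60 in hypoxia and 0.12 in normoxia, so the hypoxia libraries weigh most in these values.

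A short sequence feature of the promoters was also counted. The core bound by hypoxia-inducible factors is ACGTG or GCGTG. It was searched on both strands in windows from 250 bases before to 50 after each RefSeq start (GRCm38.p6). ACGTG occurred in 2 of the 7 members with an entry, Tfrc and Ncoa4, and in 21.8% of 27025 genes. With GCGTG allowed as well, Steap3, Ftl1 and Fth1 also held a match, as did 46.7% of all genes.

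The wider pathway was described with 80 further genes of iron metabolism, listed by function. Of these 72 were tested, 10 were higher and 13 lower in normoxia, and their median log2 change was -0.016. With the replicate block 14 were higher and 15 lower. Over all tested genes 18.0% were higher and 16.5% lower without the block, and 23.3% were higher and 22.7% lower with it. The p-values that follow are from limma-trend without the block, adjusted by the Benjamini-Hochberg method over all 14369 genes.

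Of the 13 genes of iron import and the transferrin cycle, 2 rose in normoxia and 4 fell, and the other 7 did not pass. Steap2, a further metalloreductase, rose from a mean of 143 to 208 CPM (log2 change 0.56, SE 0.11, adjusted p = 0.0029). Slc39a14, a transporter of iron not bound to transferrin, rose less (0.34, SE 0.10, adjusted p = 0.0163). The ferrireductases Steap4 and Cybrd1 fell by 1.22 and 1.05 on the log2 scale (SE 0.34 and 0.24, adjusted p = 0.0151 and 0.0049). Cybrd1 was scarce, at 4.78 CPM in hypoxia and 2.15 CPM in normoxia. Slc48a1, a haem transporter, fell by 0.27 (adjusted p = 0.00801). Of the other STEAP-family genes listed, Steap1 had a log2 change of 0.41 ± 0.20 and did not pass without the block (adjusted p = 0.144), but was higher with it (adjusted p = 0.00187).

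In iron export and the hepcidin axis, 2 of 7 tested genes passed, and both were lower in normoxia. They were Abcg2, an exporter of porphyrins (-0.35, SE 0.11, adjusted p = 0.0305), and Neo1, a co-receptor of hepcidin signalling (-0.22, SE 0.077, adjusted p = 0.0449). Hamp, which encodes hepcidin itself, did not pass the filter on low counts. Among storage genes and chaperones 1 of 6 rose and 3 fell. Glrx3, a cytosolic glutaredoxin, rose by 0.28 (adjusted p = 0.00263). Pcbp2 and Pcbp1, which hand iron to ferritin, were lower by -0.55 and -0.16 (adjusted p = 8.31e-05 and 0.0484), and Bola2, a partner of Glrx3, by -0.45 (adjusted p = 0.00269). The change of Pcbp1 was 0.045 after the GC and length correction.

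Of the partners of Fbxl5 in the IRP2 ligase, Cul1, the scaffold, rose by 0.53 (SE 0.075, adjusted p = 0.000362). Skp1a and Rbx1 did not pass (log2 changes 0.13 and 0.10), but Skp1a was higher with the replicate block (limma-trend, adjusted p = 0.0351). Cul1 went from 56.2 to 80.6 CPM, and Fbxl5 lay between 35.3 and 43.4 CPM in all libraries. After the GC and length correction the log2 changes were 0.36 for Cul1, 0.034 for Skp1a and -0.26 for Fbxl5. In that fit Cul1 was called higher and Fbxl5 lower, and Skp1a was not called. Epas1, the gene of the hypoxia-inducible factor HIF-2α, whose mRNA is also known for an iron-responsive element, did not pass (log2 change -0.011, SE 0.16).

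In haem metabolism, 1 gene of synthesis and 1 of breakdown passed, both higher in normoxia. Alas1, the first enzyme of haem synthesis, rose from 46.0 to 63.5 CPM (0.47, SE 0.083, adjusted p = 0.00126), and was the 1 of 8 tested synthesis genes to pass. Hmox1, which opens the haem ring and releases its iron, rose from 296 to 414 CPM (0.49, SE 0.065, adjusted p = 0.000247), and was the 1 of 4 breakdown genes to pass. Alas2, the erythroid form of the first enzyme, did not pass the filter.

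In the mitochondrial list 3 of 17 tested genes rose and 2 fell. Slc25a37, the mitochondrial iron importer mitoferrin-1, rose by 0.41 (SE 0.082, adjusted p = 0.00247). The chaperone Hspa9 rose by 0.19 (adjusted p = 0.0403), and the co-chaperone Hscb and the ferredoxin Fdx1 were lower by -0.47 and -0.41 (adjusted p = 0.0227 and 0.0485). The scaffold Iscu and the desulphurase Nfs1 did not pass, with log2 changes of 0.048 and 0.07. Of 9 genes of cytosolic iron-sulphur assembly 2 passed, both lower in normoxia, namely Mms19 (-0.34, adjusted p = 0.00197) and Ciao2a (-0.28, adjusted p = 0.0368).

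The calls of Steap2, Steap4, Cybrd1, Slc48a1, Glrx3, Pcbp2, Bola2, Cul1, Alas1, Hmox1, Slc25a37 and Mms19 held with each library left out in turn. Those of Slc39a14 and Hscb were lost without hypoxia replicate 4, and also without normoxia replicate 1 or 4, respectively. Abcg2, Neo1, Pcbp1, Hspa9, Fdx1 and Ciao2a lost theirs in 4 to 7 of these 8 fits, and each of the 6 lost it without hypoxia replicate 4. After the GC and length correction without the block, Slc48a1 (-0.12, adjusted p = 0.169), Hspa9 (0.073, adjusted p = 0.357) and Hscb (-0.37, adjusted p = 0.0629) lost their calls, as did Pcbp1. With the block added, Slc48a1 and Hscb were called again (adjusted p = 0.028 and 0.0174). The log2 changes of Steap2, Glrx3 and Abcg2 moved to 0.37, 0.15 and -0.59 under the correction and stayed called.

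**Figure D5:**
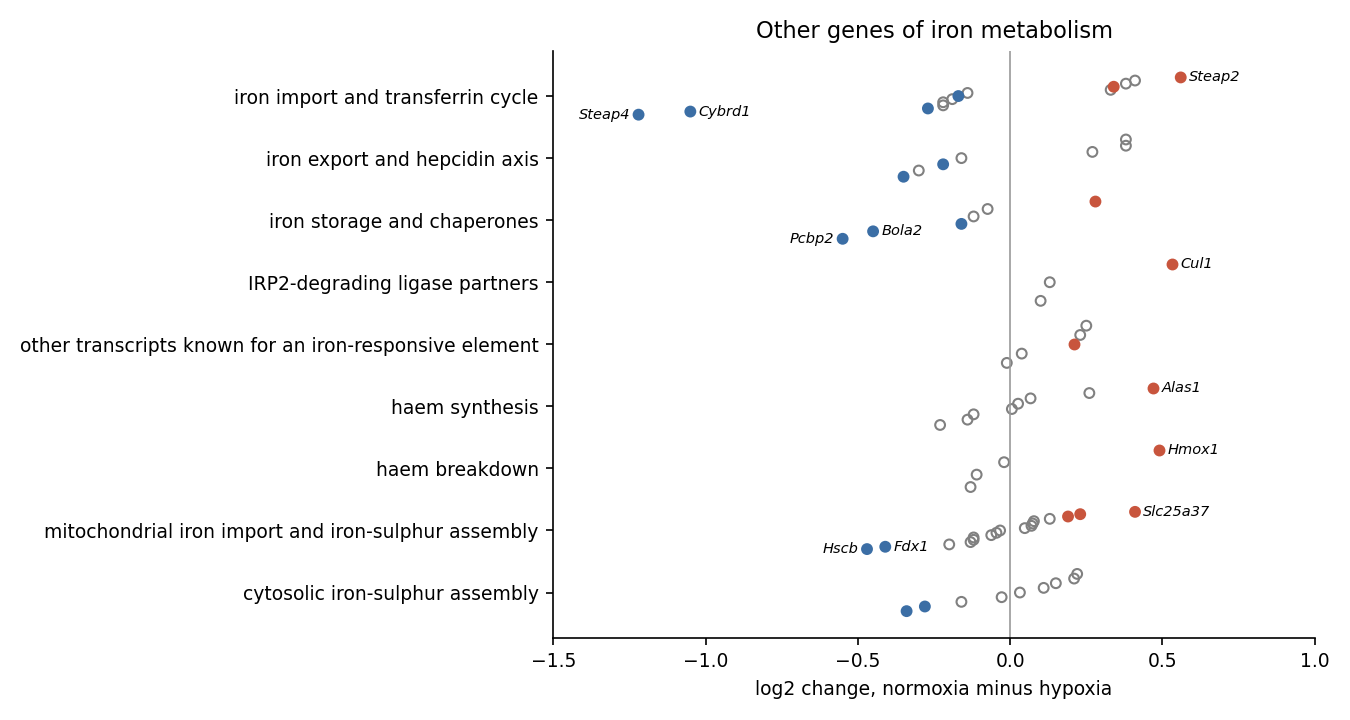
Log2 change (normoxia minus hypoxia, x axis) of the tested genes of each list of iron metabolism (y axis). Filled points passed an adjusted p of 0.05 (red higher, blue lower in normoxia), open points did not, and the filled points with the larger changes are named. Steap4 and Cybrd1 fall furthest, by 1.22 and 1.05, and Steap2, Cul1 and Hmox1 lie highest among the filled points.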

How the data were processed

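Libraries were made from total RNA and sequenced as single-end reads. Per the study's methods, the authors aligned them to mm10 with STAR, run within zUMIs, and counted them per Ensembl gene with featureCounts. The counts they deposited are whole numbers without normalization. Whether strand, introns or reads with several positions were used is not stated.

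The 10 members and all gene lists were chosen with earlier results of these data known. Symbols and positions (counted from 1) came from GENCODE M21 on the same assembly, GRCm38, which named 53360 of 53465 identifiers. The filter was filterByExpr (edgeR 4.0.16, minimum count 5), after which 14369 genes remained with 99.9% of the counts. Log2 CPM values with TMM factors and a prior count of 3 were compared by limma-trend (limma 3.58.1, R 4.3.3). P-values were adjusted by the Benjamini-Hochberg method, and 0.05 was the threshold. The log2 scale with this prior understates the change of scarce genes. CPM values are scaled by TMM. Normalization is not stated in the methods, so TMM was chosen here.

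Because the same numbers occur in both groups and the sorted cells were divided between conditions, the comparison was also fitted with that number as a block. The check of pairing, given with the samples, correlated deviations from group means across genes. Alternatives were the edgeR quasi-likelihood test, DESeq2 1.42.0, limma-voom, other scalings, no filter, a prior count of 0.5, each library left out, and a spline correction (5 degrees of freedom each) for the longest transcript's GC content and length, known for 14353 genes. A fit without both samples numbered 1 was chosen after seeing the data. Copies of ferritin genes were transcripts with at least 90% identity over 300 bases. The methods were tested on simulated data.

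Named genes are the 10 members, up to 3 rises and 3 falls with the largest change per list among genes passing the threshold, the 5 genes most like and most unlike Tfrc (mean log2 CPM of at least 3), and ferritin pseudogenes with at least 10 counts in all. Some genes that meet this rule are not reported here. Markers and the other genes named were picked from their lists for their role or after their values were seen. Depth floors cover counting error only. Beside the lists already given, the MSC genes summed to 3611 to 4454 CPM in hypoxia and 3993 to 4350 CPM in normoxia, with 3 of 10 higher and 1 lower in normoxia, and 4 endothelial genes summed to at most 2.65 CPM.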

Additional observations from a re-analysis of the deposited data

Results flagged for a closer look

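In 24 sets of 4 values (the log2 CPM of each of the 10 genes, the total count and the macrophage sum, in each group), 2 held a library far from the other 3 by Dixon's criterion, where chance gives about 1.2. The first was Ftl1 in normoxia, where replicate 3 stood at 634 CPM and the others between 557 and 564 CPM, so that the gap was 0.906 of the whole range on the log2 scale. Normoxia replicate 3 also had the highest macrophage sum, 1271 CPM, and the part of macrophage RNA was not tested. The second was the total count in hypoxia, where replicate 1 had 25132141 counts and the gap was 0.976 of the range. The log2 change of Tfrc was 1.81 with this library and 2.06 without it.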

How the results depend on the processing

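The direction of Tfrc held in every setting run, with log2 changes from 1.57 to 2.06 over the fits that left out each library. In those fits 3 to 3 of the 10 genes were called higher and 0 to 3 lower, and 7 to 12 further iron genes were called higher and 6 to 11 lower. Steap3 lost its call without hypoxia replicate 4, and Ftl1 without hypoxia replicate 3 or 4 or normoxia replicate 1, 2 or 4. With library size alone 5 of the 10 were called higher and 0 lower, and 6 further iron genes were lower. Of all 14369 tested genes, 3611 were then higher and 1575 lower. Without a filter on low counts, where more genes are adjusted for, 1 of the 10 and 8 further iron genes were lower. Shares over all genes are not given for this fit or for those that left out a library. Nothing particular to iron genes is therefore read from their counts. The replicate block gave 4 lower members, as stated with the counts, and ended no call. Signs turned after the GC and length correction, with or without the block, for Ftl1 (0.022), Ncoa4 (-0.086) and Pcbp1 (0.045), none of them called. Fbxl5 changed sign with library size alone (0.044) and without hypoxia replicate 1 (0.0062). The latter was the highest of the fits that left out a library, against -0.092 as the lowest. The cause was not tested. Fth1 over Tfrc per kilobase lay between 269 and 391 in hypoxia and between 93.2 and 101 in normoxia with each library left out, and was 131 in normoxia with the longest transcript as length. Depth limits none of the 10 genes, since each had at least 104 counts per library.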
